A study of Mus musculus with 4 samples.

Results

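NF-kB is a family of dimeric transcription factors, and 10 genes of its subunits, inhibitors and feedback regulators are described here. They were chosen by symbol: Nfkb1, Nfkb2, Rela, Relb and Rel (the subunits), Nfkbia, Nfkbie and Nfkbiz (inhibitors of the IkB type), Tnfaip3 (A20, a ubiquitin-editing enzyme) and Birc3 (cIAP2, a ubiquitin ligase). All 10 were found once each among the 17604 genes listed, in each of 4 libraries, and all 10 were among the 12274 genes that averaged 1 FPKM or more over the 4 libraries, the density of sequenced fragments scaled for transcript length and library size. The choice of genes used no measured value of these samples, although it was made with earlier results of these data known.

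In the canonical pathway, IkB proteins hold NF-kB dimers in the cytoplasm until receptors for tumour necrosis factor, interleukin-1 or microbial products switch on the IkB kinase, which marks IkB for destruction and frees the dimer for the nucleus. The freed dimers switch on the genes of several of their own inhibitors, among them Nfkbia and Tnfaip3, which closes a negative feedback loop. In the intestinal epithelium the pathway is known for control of cell survival, chemokine production and the response to bacteria. The activity of NF-kB is set largely by protein location and degradation, which RNA levels do not show.

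RNA was sequenced from epithelial cells isolated from the colon of C57BL/6 mice that were either wild type or Stat4-/-, a genotype without the transcription factor STAT4. The cells were plated on Matrigel, given 24 h to attach, and kept as controls or given LIF (leukemia inhibitory factor, which signals through gp130 as interleukin-6 does) at 20 ng/ml. Each genotype had a control and a LIF group, and each of the 4 groups had 1 library. The labels do not give the duration of LIF, or the age and sex of the mice, for a sample. The design text speaks of duplicates, and whether a column holds 1 library or pooled duplicates is not stated. Below, "in library order" gives the wild-type control first, then LIF in wild type, then the Stat4-/- control, then LIF in Stat4-/-.

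Stat4 itself stood at 19.7 and 20.5 FPKM in the wild-type libraries and at 2.01 and 2.98 FPKM in the Stat4-/- libraries, which goes with the genotype labels. The libraries also differed by genotype in Y-linked RNA: Eif2s3y was at 6.68, 7.69, 0.020 and 0.10 FPKM in library order, so genotype and sex of the mice cannot be told apart here. The estimated depth ran from 22 to 27.7 M fragments (M for mega), so that 1 fragment of a 2 kb transcript is worth 0.0181 to 0.0227 FPKM. Of the epithelial markers, Krt8 was at 2972 to 3173, Vil1 at 109 to 160 and Cdx2 at 14.2 to 23.0 FPKM. Markers of other cells were also detected, some of them at levels above Cdx2 (the mesenchymal gene Vim at 316 to 380, Ly6g at 145 to 210 and Dcn at 127 to 143 FPKM), and are given beside the genotype results. Ly6g was taken from a list of neutrophil markers. The others listed there reached at most 3.96 FPKM (Cxcr2), so Ly6g alone does not show neutrophils.

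The region before the start site of these genes is shown first, as the place searched for possible binding sites of NF-kB itself. RefSeq promoters (GRCm38.p6) were matched for 7 of the 10 genes, giving 10 start sites, and the 250 bases before each start were searched on both strands for the kappaB consensus, the 10-base site that NF-kB dimers bind. The promoters of Nfkbia, Rel and Nfkbie are printed in the direction of transcription and end at the base before the start, with each match in capitals.
Nfkbia: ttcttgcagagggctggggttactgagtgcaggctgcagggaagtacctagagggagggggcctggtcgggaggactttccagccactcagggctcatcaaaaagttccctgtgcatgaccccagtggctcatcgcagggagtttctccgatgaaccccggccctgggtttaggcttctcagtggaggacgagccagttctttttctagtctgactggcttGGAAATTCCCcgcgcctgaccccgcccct
Rel: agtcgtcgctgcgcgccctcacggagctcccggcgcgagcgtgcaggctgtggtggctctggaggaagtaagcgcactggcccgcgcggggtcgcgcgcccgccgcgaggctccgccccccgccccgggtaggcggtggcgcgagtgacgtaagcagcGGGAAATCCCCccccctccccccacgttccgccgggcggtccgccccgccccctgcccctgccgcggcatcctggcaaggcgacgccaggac
Nfkbie: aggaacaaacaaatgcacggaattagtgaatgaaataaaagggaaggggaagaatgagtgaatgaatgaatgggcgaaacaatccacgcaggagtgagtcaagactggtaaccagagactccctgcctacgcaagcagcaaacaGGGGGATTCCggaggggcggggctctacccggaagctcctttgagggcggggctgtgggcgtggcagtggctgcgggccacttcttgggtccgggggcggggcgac

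The Nfkbia stretch lies at chr12:55492648-55492897 on the minus strand, the Rel stretch at chr11:23770970-23771219 on the minus strand and the Nfkbie stretch at chr17:45555450-45555699 on the plus strand. In Nfkbia the match GGAAATTCCC starts 29 bases before the start site, and in Nfkbie GGGGGATTCC starts 106 bases before it. In Rel the capitals hold 2 matches shifted by a base, GGGAAATCCC at 92 and GGAAATCCCC at 91 bases before the start.

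Matches were found at 7 of the 10 start sites, in 5 of the 7 genes, against 7.25% of 32817 promoters of the same length. Nfkb2 held GGGAATTCCC at 39, GGAATTCCCC at 38 and GGGGCTTTCC at 11 bases before its first listed start, and 1 match before each of its other starts. Tnfaip3 held GGGACACCCC at 125 and GGAAATCCCC at 12 bases before its first start, with 0 matches before the second. Rela and Birc3 held 0 matches in this window. All 250 bases before the Nfkb2 starts, and 247 of those before the first Tnfaip3 start, lie inside the gene as GENCODE M21 draws it. The STAT motif TTCNNNGAA, whose letters read the same on either strand, was present before 1 of the 10 starts, the first of Nfkb2, and in 7.01% of all promoters. In these promoters 0 of the kappaB matches overlapped a STAT match. A match is a string of letters and was not tested for binding.

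The family spanned a wide range of levels. Nfkbia, which encodes the main inhibitor IkB-alpha, led the 10 at a mean of 137 FPKM over the 4 libraries. It was followed by Nfkb2, Rela and Nfkb1 at means of 68.8, 64.2 and 57.2 FPKM, then by Relb at 46.4, Birc3 at 42.5, Nfkbiz at 35.5 and Tnfaip3 at 33.4 FPKM. Nfkbie and Rel were lowest at 8.15 and 7.03 FPKM. This order was the same in all 4 libraries. Between neighbours, the ranges over the 4 libraries overlapped for Nfkb2 and Rela, Rela and Nfkb1, Relb and Birc3, Nfkbiz and Tnfaip3, and Nfkbie and Rel, and did not overlap for the other neighbours. Within a gene the highest library exceeded the lowest by 1.06-fold (Relb) to 1.45-fold (Nfkbia).

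**Figure D1:**
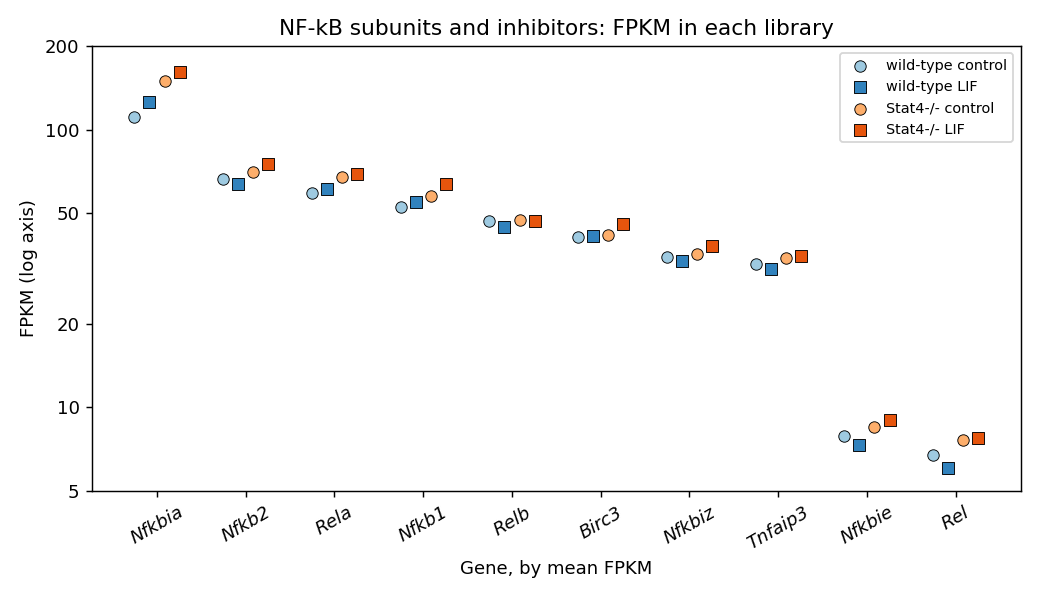
FPKM on a log axis of the 10 genes, ordered by mean, with 1 point for each of the 4 libraries (blue, wild type; orange, Stat4-/-; circles, control; squares, LIF). The order of genes is the same in every library, and Stat4-/- LIF is the highest point for 9 of the 10 genes.

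Among the subunits, Rela encodes p65, which carries the activation domain of the canonical p50-p65 dimer. Rela was measured at 59.1, 61.3, 67.4 and 69.0 FPKM in library order. Both Stat4-/- libraries lay above both wild-type libraries. Nfkb1, which encodes the p105 precursor of p50, was at 52.4, 54.9, 57.8 and 63.6 FPKM in library order, again without overlap between the genotypes. The ratio of Nfkb1 to Rela FPKM stayed between 0.857 and 0.922 in the 4 libraries.

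Nfkb2 and Relb form the non-canonical dimer. Nfkb2, which encodes the p100 precursor of p52, was at 66.2, 63.8, 70.2 and 75.0 FPKM in library order, with the Stat4-/- LIF library highest and no overlap between genotypes. Its exons overlap those of Psd and AC114539.1 on the opposite strand over 18.1% of their length in GENCODE M21. Strand-specific counting is not stated, so reads of these genes cannot be told apart there. Relb, the usual partner of p52, was at 46.8, 44.7, 47.3 and 46.8 FPKM, the narrowest range of the 10 genes and the only one whose genotypes overlapped. The Nfkb2 to Relb ratio of FPKM was 1.41, 1.43, 1.49 and 1.60 in library order. Rel, which encodes c-Rel, a subunit known best from lymphocytes, was at 6.71, 6.03, 7.60 and 7.77 FPKM, with both wild-type libraries below both Stat4-/- libraries.

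Among the inhibitors, Nfkbia was at 111, 125, 149 and 161 FPKM in library order. Each Stat4-/- library exceeded each wild-type library, and each LIF library exceeded its own control. Nfkbie, which encodes IkB-epsilon, was at 7.88, 7.29, 8.45 and 8.96 FPKM, and the genotypes did not overlap. Nfkbiz, which encodes the atypical nuclear protein IkB-zeta, was at 34.7, 33.6, 35.8 and 38.0 FPKM, with the 3 libraries other than Stat4-/- LIF close together. The ratio of Nfkbia to Rela FPKM was 1.89, 2.05, 2.21 and 2.34 in library order, so the inhibitor RNA was higher relative to Rela in each Stat4-/- library than in each wild-type library. Tnfaip3 was at 32.9, 31.3, 34.5 and 35.1 FPKM and Birc3 at 41.2, 41.5, 41.9 and 45.5 FPKM, with the genotypes apart by less than 1 FPKM at their closest in Birc3. At most 4.39% of the 31-base words of any of the 10 genes occur in another listed gene (Birc3, shared mainly with Birc2).

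The first comparison asks how RNA levels differ with Stat4 genotype. Nfkbia, Rela and Nfkb1 rose in Stat4-/- cells, and 0 of the 10 genes fell. Nfkbia was 1.34-fold higher in the Stat4-/- control than in the wild-type control library and 1.29-fold higher between the LIF libraries. In a limma fit over all 12274 genes with genotype and treatment as additive terms, its genotype coefficient was 0.39 on the log2(FPKM + 1) scale (SE 0.041, Benjamini-Hochberg adjusted p = 9.4e-05). Rela rose by 0.18 (SE 0.048, limma adjusted p = 0.0274) and Nfkb1 by 0.17 (SE 0.050, limma adjusted p = 0.0376). Each was higher both between the control libraries and between the LIF libraries. The background was large, with 7.81% of all genes tested called higher and 7.68% called lower in Stat4-/-.

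The other 7 genes did not pass. Their coefficients ran from 0.040 (Relb, limma adjusted p = 0.662) to 0.24 (Rel, SE 0.097, limma adjusted p = 0.126), and Nfkb2 came nearest to the threshold at 0.16 (SE 0.051, limma adjusted p = 0.0629). In sign, all 10 genes were higher in Stat4-/- in the control libraries, against 48.5% of all genes, and all 10 in the LIF libraries, against 46.1%. For 9 of the 10 both Stat4-/- libraries lay above both wild-type libraries, against 24.4% of all genes. The median coefficient of the 10 was 0.17, against -0.01 over all genes. The 10 genes were read in the same 4 libraries and chosen with earlier results of these data known. Their counts by sign and overlap are therefore a description and not a test. Each group has 1 library, so variation between mice or cell preparations within a group is not in these SEs. A genotype difference therefore cannot be told apart from a difference between preparations. The limma fit has 1 residual degree of freedom and counts any difference in LIF response as error. Without its variance trend 0 of the 3 calls passed, with limma adjusted p of 0.0761 for Nfkbia, 0.207 for Rela and 0.222 for Nfkb1. Without the filter on low values, or with quantile normalization, Nfkbia alone passed, with limma adjusted p of 0.0757 and 0.0679 for Rela and 0.0960 and 0.0868 for Nfkb1.

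The differences were small. At a size rule of 1.5-fold, taken on log2(FPKM + 1), 0 of the 10 genes passed in the control libraries, where 1.62% of all genes were higher and 1.59% lower, and 0 of the 10 in the LIF libraries, where 1.61% were higher and 2.2% lower. Nfkbia differed by 0.42 in the control libraries and by 0.36 in the LIF libraries. Counting error alone, from roughly 4300 to 7000 fragments on this gene, would give an SE of 0.030 and 0.028 for these log2 differences. For Rel and Nfkbie the counting SE was 0.058 and 0.094, against differences without LIF of 0.16 and 0.090, and with LIF of 0.32 and 0.26.

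**Figure D2:**
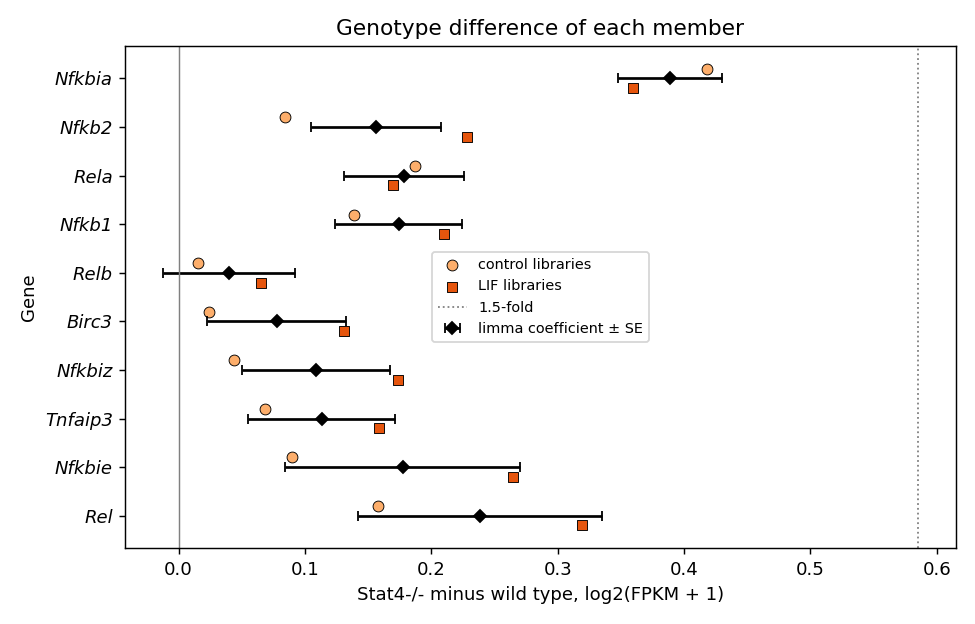
Difference of each gene between Stat4-/- and wild type on the log2(FPKM + 1) scale, in the control libraries (circles), in the LIF libraries (squares) and as the limma coefficient with its SE (diamonds). All circles, squares and diamonds lie above 0 and below the dotted 1.5-fold line, with Nfkbia farthest right at a coefficient of 0.39.

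Further genes of the pathway were taken from 5 lists. Of 28 IkB kinases and signalling adaptors, 2 rose in Stat4-/- and 0 fell by limma (0 rose without the variance trend), and the median genotype coefficient was -0.0048. This count is near the 7.81% of all genes called higher, and the genes called are given only as values. The adaptor gene Myd88, used by Toll-like and interleukin-1 receptors, was at 30.3, 30.8, 36.4 and 38.0 FPKM in library order (limma adjusted p = 0.00716). Traf2, an adaptor of tumour necrosis factor receptors, was at 17.5, 17.7, 22.0 and 22.7 FPKM (limma adjusted p = 0.00659). The most abundant, Bcl10, Tab2 and Tbk1, were at 45.6 to 49.9, 37.3 to 41.1 and 34.1 to 36.5 FPKM and did not pass.

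Of 18 other IkB proteins and negative regulators, 2 rose and 2 fell by limma, with a median coefficient of 0.12, and 0 passed without the variance trend. These counts are close to the background of 7.81% called higher and 7.68% called lower. Tnip1, a binding partner of A20, was at 42.2, 40.2, 52.7 and 52.5 FPKM (limma adjusted p = 0.00109), and Nfkbib, which encodes IkB-beta, at 39.9, 42.1, 46.3 and 48.9 FPKM (limma adjusted p = 0.0195). Commd1 and Pdlim2, which promote loss of nuclear p65, were the members that fell, at 37.8, 45.2, 29.6 and 35.5 FPKM and at 30.9, 32.0, 27.0 and 25.5 FPKM. Tax1bp1, Rnf11 and Tnip3 were the most abundant, at 96.1 to 109, 55.6 to 61.5 and 44.1 to 49.9 FPKM, and did not pass.

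Of 16 receptor genes 14 were tested, and 6 rose in Stat4-/- while 0 fell by limma (median coefficient 0.18). The shares over all genes tested were 7.81% called higher and 7.68% called lower. With low genes left in, or with no variance trend, 3 receptor genes passed. Tnfrsf11a, which encodes RANK, was at 2.91, 3.19, 7.09 and 6.87 FPKM (limma adjusted p = 0.000135), and Cd40 at 6.98, 6.68, 10.6 and 9.93 FPKM (limma adjusted p = 0.00206). The pattern-recognition receptor gene Tlr2 was at 4.08, 4.67, 6.87 and 6.52 FPKM. Tnfrsf12a, Tnfrsf1b and Tnfrsf13c also rose, by 0.12, 0.23 and 0.71, the last from under 2 FPKM in both wild-type libraries. Tnfrsf1a and Ltbr, receptors for tumour necrosis factor and lymphotoxin, were at 68.6 to 74.6 and 48.7 to 54.8 FPKM and did not pass. Of 12 ligand genes 8 were tested, with 1 called higher and 1 called lower, against the same shares of all genes. Il33 rose (3.22, 3.20, 5.74 and 4.96 FPKM, limma adjusted p = 0.00503), a call that was lost with low genes left in or with no variance trend. Il18 fell (14.5, 14.8, 4.58 and 5.14 FPKM, limma adjusted p = 1.65e-06), whereas Tnf was at 7.14 to 7.98 FPKM and Il1b at 3.67 to 6.10 FPKM, and neither passed.

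Of 34 target genes of NF-kB, which overlap none of the 10 genes, 33 were tested, and 20 rose in Stat4-/- while 0 fell by limma. Over all genes tested, 7.81% were called higher and 7.68% lower. The list was chosen with earlier results of these data known, so its count is a description and not a test. The median coefficient of the target genes was 0.30, and 8 passed without the variance trend. The monocyte chemokine gene Ccl2 was at 147, 172, 246 and 283 FPKM in library order (coefficient 0.73, limma adjusted p = 4.07e-07), and Il6 at 26.4, 29.8, 48.0 and 55.1 FPKM (0.85, limma adjusted p = 2.01e-06). Cxcl10, also an interferon target, rose by 1.55, and the neutrophil chemokine genes Cxcl1, Cxcl2 and Cxcl5 rose by 0.60, 0.58 and 0.59. Plau, the most abundant, rose by 0.25, whereas the prostaglandin synthase gene Ptgs2, at 484 to 527 FPKM, did not pass. These coefficients were larger than that of Nfkbia for 15 of the 33 target genes. Many target genes also answer to interferon or STAT proteins, and Bcl2a1d shares 89.1% of its 31-base words with its copies, so its value is uncertain.

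**Figure D3:**
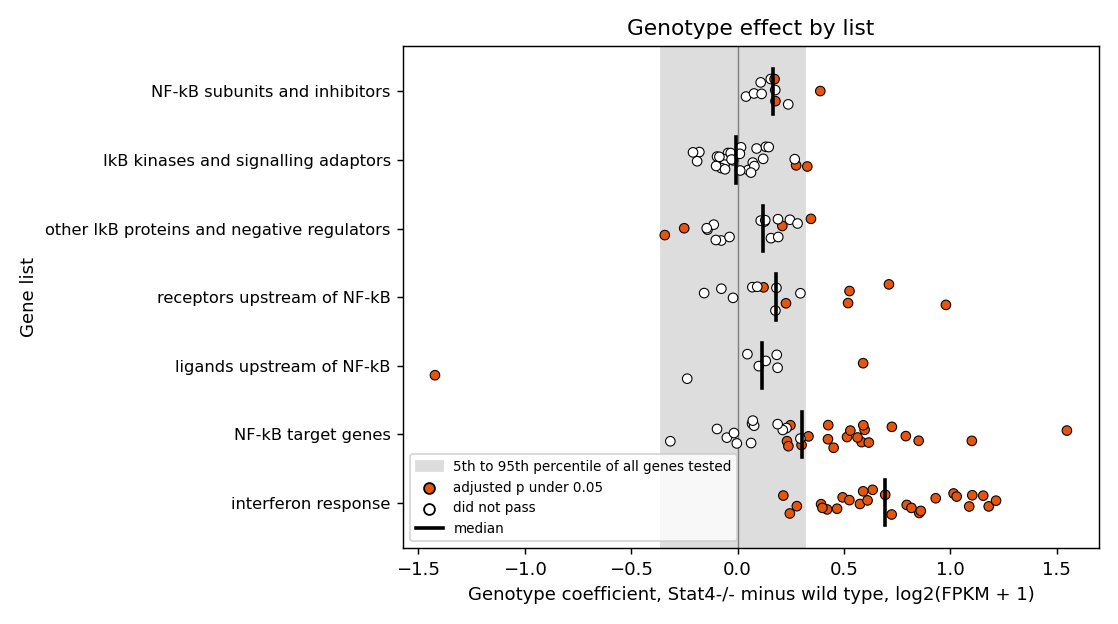
Limma genotype coefficient (Stat4-/- minus wild type, log2(FPKM + 1)) of each tested gene in 7 lists, with filled points at an adjusted p under 0.05, a bar at the median and the 5th to 95th percentile of all genes (-0.36 to 0.32) shaded. The 10 subunit and inhibitor genes sit close together to the right of 0, the target genes reach 1.55, and all 27 interferon-response genes are filled.

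Other signals moved with genotype as well, where 7.81% of all genes tested were called higher and 7.68% lower in Stat4-/-. All 27 interferon-response genes tested rose in Stat4-/- by limma (median coefficient 0.69; 16 without the variance trend), and their summed level was 841, 976, 1356 and 1544 FPKM in library order. Of the smooth muscle markers 5 of 6 rose and Acta2 fell, with sums of 203 and 194 against 279 and 246 FPKM. Of the endothelial markers 3 of 6 rose and 0 fell, with sums of 224 and 216 against 250 and 262 FPKM. Of the B and plasma cell markers 4 of 6 tested rose and Jchain fell, with sums of 37.6 and 38.9 against 22.7 and 34.5 FPKM. Tnfrsf17 was listed at 0 in 3 libraries, the Stat4-/- control being the exception. The 14 macrophage and dendritic cell markers summed to 122 and 143 against 137 and 133 FPKM (Cd14 rose, Mrc1 and C1qb fell). Cd14 alone gave 52.82 and 63.59 against 71.34 and 71.15 FPKM of these sums. Of the 12 markers tested, 6 were lower in Stat4-/- between the control libraries and 11 between the LIF libraries. The 10 T and NK cell markers summed to 7.98 and 8.49 against 7.54 and 11.8 FPKM, with 0 calls among 4 tested, Ncr1 at 0 in Stat4-/- LIF and Nkg7 at 0 in the Stat4-/- control. The 8 neutrophil markers, of which 7 were listed, summed to 216 and 204 against 163 and 154 FPKM, almost all of it Ly6g. The others listed reached at most 3.96 FPKM (Cxcr2), so this sum is not a measure of neutrophils. Of 11 epithelial markers 4 fell and 1 rose, and the fibroblast sums were 754 and 738 against 701 and 673 FPKM (3 fell and 1 rose of 9). The part of these signals in the genotype differences of the NF-kB genes was not tested, and more cells of a type cannot be told apart from more RNA per cell in bulk samples.

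The second comparison asks how the same genes differ with LIF. Here 0 of the 10 genes passed in either direction by limma with Benjamini-Hochberg adjustment, against 0.701% of all genes called higher and 0.122% called lower. At an unadjusted limma p under 0.05, Nfkbia alone of the 10 passed, as higher, where 8% of all genes passed as higher and 4.52% as lower. Nfkbia was 1.13-fold higher with LIF in wild type and 1.08-fold higher in Stat4-/-, with a coefficient of 0.14 (SE 0.041, limma adjusted p = 0.153). The other coefficients lay between -0.052 (Rel) and 0.10 (Nfkb1, limma adjusted p = 0.447). The size rule of 1.5-fold was passed by 0 of the 10 in wild type (0.587% of all genes higher and 0.285% lower) and by 0 of the 10 in Stat4-/- (0.44% higher and 0.554% lower). Among the 33 target genes 6 rose with LIF by limma, namely Cxcl1, Cxcl2, Cxcl5, Ccl2, Ccl5 and Csf3, by 0.21 to 0.46, and among the other 4 pathway lists 0 genes were called. These 6 calls became 3 with a pseudocount of 0.1, 1 with median-of-ratios scaling, and 0 with quantile normalization, without the filter or without the trend.

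The signs of the LIF differences are given as values. In Stat4-/- cells 9 of the 10 genes were higher with LIF, against 48% of all genes, and in wild-type cells 4 of the 10, against 50.9%. Nfkbia, Rela, Nfkb1 and Birc3 were higher with LIF in both genotypes, and Relb was lower in both. For Nfkb2, Nfkbie, Nfkbiz, Tnfaip3 and Rel the LIF difference was below 0 in wild type and above 0 in Stat4-/-, a pattern of opposite signs seen in 41.1% of all genes. The largest of these were Rel, at -0.13 in wild type and 0.028 in Stat4-/-, and Nfkbie, at -0.099 and 0.076. The counting SE was 0.062 and 0.054 for Rel and 0.099 and 0.089 for Nfkbie. The differences of Nfkbie, and that of Rel in Stat4-/-, are of the order of this SE or smaller. The difference of Rel in wild type is larger than its counting SE. Nfkb2 was at -0.052 and 0.093, with counting SEs of 0.027 and 0.024. The difference of the LIF effects has 0 residual degrees of freedom and was not tested.

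**Figure D4:**
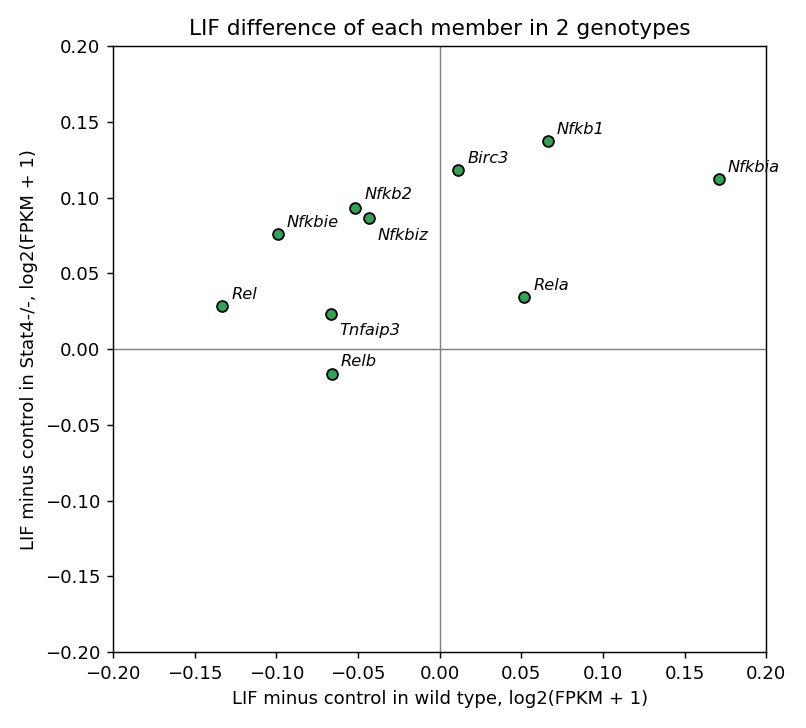
LIF minus control on the log2(FPKM + 1) scale in wild type (horizontal axis) and in Stat4-/- (vertical axis), 1 point for each of the 10 genes. Nfkbia, Rela, Nfkb1 and Birc3 lie above 0 on both axes, Relb lies below 0 on both, and the other 5 lie below 0 in wild type and above 0 in Stat4-/-.

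By library, 9 of the 10 genes were highest in Stat4-/- LIF, against 26.4% of all genes, the exception being Relb, highest in the Stat4-/- control. The wild-type LIF library was the lowest for 6 of the 10, against 19.8% of all genes. The genotype and LIF comparisons share libraries, so these patterns are not independent of the differences above. The summed FPKM of the 10 genes was 459, 470, 520 and 551 in library order.

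The profile of Nfkbia, which had the widest range of the 10, was set beside those of the 8828 other genes that averaged 5 FPKM or more. By Euclidean distance between centred log2(FPKM + 1) values over the 4 libraries, the nearest were Gm11127, the MHC class I gene H2-K1, LOC547349, Psph (phosphoserine phosphatase, of serine synthesis) and Znfx1 (a zinc finger helicase), at distances of 0.018 to 0.036. H2-K1 was at 321, 363, 425 and 457 FPKM and Znfx1 at 18.1, 20.1, 24.5 and 27.0 FPKM in library order. With 4 libraries many genes can lie this close, so this is a description only.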

How the data were processed

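RNA was sequenced from 4 samples, 1 per group. A TruSeq kit was used on total RNA, per the labels. The submitters' processing notes name HISAT, Bowtie2 and mm10, with versions and the quantification program not given in the sources used here. FPKM values were deposited by the authors, per the file headers, and 0 of the value columns were left unused.

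Genes that averaged 1 FPKM or more were kept, and log2(FPKM + 1) was compared, which understates changes of low genes. Limma (3.58.1, R 4.3.3) fitted genotype and treatment as additive terms with a variance trend (1 residual degree of freedom, prior 10.2), two-sided, with Benjamini-Hochberg adjustment over all 12274 genes at 0.05. The fit was checked on simulated LIF effects with independent noise between libraries. That check did not cover genotype effects, differences in LIF response or variation between mice. The error behind a p-value comes mostly from the prior, which is drawn from all genes tested. The rest is the difference of LIF effects between the genotypes. No p-value here measures a spread between replicate libraries, mice or cell preparations.

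Depth was estimated from FPKM steps of whole fragments in 225 to 240 genes with a single transcript; 56.2 to 61.3% of values came within 0.15 of a whole fragment, so depth is approximate. Counting SEs use the longest coding transcript and cover counting error only.

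The 10 genes and all lists were chosen with earlier results of these data known. Named genes of each pathway list were those called (at most 6 per effect, smallest adjusted p) and the 3 with the highest mean; other genes named were chosen after their values were seen. Alternatives were another pseudocount, other filters, 3 scalings, no variance trend and other size rules. Positions are from GENCODE M21 and promoters from RefSeq, both on mm10 (GRCm38).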

Additional observations from a re-analysis of the deposited data

Results flagged for a closer look

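The LIF difference had opposite signs in the genotypes for 5 of the 10 genes, on the log2(FPKM + 1) scale and with 1 library against 1. Nfkb2 was at -0.052 in wild type and 0.093 in Stat4-/-, Nfkbie at -0.099 and 0.076, and Nfkbiz at -0.044 and 0.086. Rel was at -0.13 and 0.028, and Tnfaip3 at -0.067 and 0.023. The difference between genotypes was not tested, and 41.1% of all genes showed opposite signs.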

How the results depend on the processing

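Replicates could not be paired, because the labels give every group the same single replicate number. The additive fit does compare genotypes within treatment and treatments within genotype. Leaving out a library was not run, since 3 libraries leave the additive fit 0 residual degrees of freedom. With upper-quartile scaling every count stayed within 1.5 times. Among the 10 genes, calls for genotype went from 3 to 1 without the filter on low values and with quantile normalization (Nfkbia in each), and to 0 without the variance trend. Nfkbia passed in 6 of 7 alternative fits (limma adjusted p from 7.79e-05 to 0.0761), Rela and Nfkb1 in 4 of 7, and the coefficients of all 10 for genotype stayed above 0. The LIF coefficient of Nfkb2 went from 0.021 to -0.0092 with quantile normalization. With a size rule of 5 to 4 in place of 1.5-fold, Nfkbia was higher in Stat4-/- in the control libraries (1 gene, against 6.75% of all genes) and in the LIF libraries (1 gene, against 6.12%). In the LIF libraries the genotype ratio of FPKM was 1.289 for Rel and 1.285 for Nfkbia. Rel did not pass there because the rule was taken on log2(FPKM + 1).

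Over all genes, the 86 higher and 15 lower calls for LIF became 32 and 5 with a pseudocount of 0.1, 7 and 3 with median-of-ratios scaling, 1 and 3 with quantile normalization, and 0 and 1 without the filter or without the trend. The 6 higher calls for LIF among genes of the 5 pathway lists became 3, 1, 0, 0 and 0 in that order. The 959 higher and 943 lower calls for genotype became 407 and 357 without the filter and 123 and 128 without the trend. The 31 higher and 3 lower pathway calls for genotype became 11 and 1 without the trend, and the lower calls 5 with a mean of at least 5 FPKM. Apart from the missing trend or filter, which change the variance estimate or the genes tested, the cause was not tested.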
